A study of Mus musculus with 6 samples.

Results

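A CpG dinucleotide carries a cytosine on each DNA strand, and the pairs described here are those whose cytosines had unlike methylation levels in the same mice. A pair was made of listed positions p and p+1 that touched no other listed position, and it was kept when both had at least 20 reads in all 6 libraries. On chromosomes 1 to 19 there were 193113 such pairs. A pair was called strand-discordant when its strand difference, the level at p minus the level at p+1, had 1 sign and a size of at least 20 percentage points in at least 4 of the 6 libraries. That rule chose 321 pairs, or 0.166% of all pairs. The strand differences of these 321 pairs therefore chose them and are given as a description, with no test.

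The libraries came from right testes of male KM mice, an outbred strain, sampled at body maturity, and DNA was read by reduced representation bisulfite sequencing. This method cuts DNA with the enzyme MspI and reads short CpG-rich fragments after bisulfite has converted unmethylated cytosines. Fragments of 40 to 220 bp were selected, per the labels' protocols. The 3 hemicastrated mice had lost the left testis to surgery before puberty. The 3 sham mice had sham surgery at the same time and kept both testes. Each mouse gave 1 library, and the mice are the replicates. In the main edgeR tests below, on all pairs and all 6 libraries, the spread was taken from a trend over read number fitted to all pairs. The spread of a pair between its own mice did not enter its p-value there. Testis tissue was read in bulk, and a level averages the DNA of all its cells.

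Methylation at CpG sites is usually symmetric. After DNA replication the new strand is unmethylated, UHRF1 recognises the hemimethylated site and DNMT1, the maintenance methyltransferase, copies the mark to the new strand. A CpG that is methylated on 1 strand only is called hemimethylated. Bisulfite reads are made from separate strands, so a difference between the strands can show it. Whether sequence variants of these outbred mice lie at the pairs and change their levels was not tested. DNA methylation patterns of male germ cells are laid down before meiosis, and adult testis consists mainly of germ cells.

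The hemicastrated libraries held 72564123, 69245502 and 76619701 calls, against 77721211, 78630942 and 64504011 calls in sham libraries. On mitochondrial DNA, where little methylation is assumed, the methylated share of calls was 0.478% to 0.617% over the 6 libraries. Of 14 germ cell genes whose ends are known to lose methylation in germ cells, 9 were measured, and their median levels lay between 8.03% and 25.4%, with 7 of them under 20%. All 25108 pairs that fell within RefSeq promoter windows with a letter known on either side had the letters CG at p and p+1, although the files themselves name no strand. Of these pairs, 18 (0.0717%) lay in CCGG, the site MspI cuts, whereas 11.1% of the 347506 CG dinucleotides of the windows did.

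The only strand-discordant pair inside a promoter window lay where the windows of the divergent genes Ndufa13 and Tssk6 overlap. This pair also lay inside both genes by the RefSeq gene table. Ndufa13 encodes a subunit of mitochondrial complex I, and Tssk6 a testis-specific kinase needed for chromatin condensation in sperm. The window in the Ndufa13 orientation is shown because it holds the CpG of this pair, at chr8:69901971-69902270 on the minus strand (RefSeq, GRCm38.p6). The capitals mark the CpG of the pair, base 65 of the window.
Ndufa13 promoter window: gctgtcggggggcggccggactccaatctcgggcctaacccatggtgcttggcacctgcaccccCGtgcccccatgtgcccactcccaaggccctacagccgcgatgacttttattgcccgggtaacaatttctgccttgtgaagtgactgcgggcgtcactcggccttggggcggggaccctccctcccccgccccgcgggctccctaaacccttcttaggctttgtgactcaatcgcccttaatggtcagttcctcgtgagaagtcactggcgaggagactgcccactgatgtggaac

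At position 69902205, the cytosine of the plus strand, the level was 33.1%, 28.3% and 21.8% in hemicastrated mice, against 28.0%, 24.8% and 26.5% in sham mice. At position 69902206, the cytosine of the minus strand, it was 0%, 0% and 2.70% in hemicastrated mice, against 1.20%, 1.37% and 0% in sham mice. Partial methylation was thus read from the plus strand in every mouse, while at most 2 methylated reads came from the minus strand in any mouse, and the groups overlapped on both strands. The plus strand had 119 to 138 reads in hemicastrated libraries and 113 to 141 reads in sham libraries. The minus strand had 59 to 78 reads in hemicastrated libraries and 50 to 83 in sham libraries. In hemicastrated replicate 1 the Wilson 95% intervals were 25.3% to 41.8% for the plus strand and 0% to 6.11% for the minus strand, which cover counting error only, since PCR copies are not independent molecules. The next measured pair, 35 bp away, had a mean level of 0.942%. Of the discordant pairs 0.312% lay in a promoter window, against 0.981% of pairs at 20% to 80% mean level and 13.1% of all pairs.

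The level at p was the higher one in 177 discordant pairs (0.0917% of all pairs) and the level at p+1 in 144 (0.0746%). Their median strand difference over the 6 libraries, signed toward the higher strand, had a median of 35.9 points, with quartiles at 28.2 and 48.2 points. Over all pairs, signed toward the strand with the higher mean, its median was 0.318 points and its lowest value -7.87 points. The value over all pairs is thus not an absolute difference. The difference was 20 to 30 points in 102 pairs, 30 to 50 points in 148 and at least 50 points in 71, of which 15 reached 80 points. The discordant state recurred: 158 pairs passed 20 points in all 6 libraries, 67 in 5 and 96 in 4. Among all pairs, 3878 passed 20 points in 1 library, 462 in 2 and 140 in 3. Counts therefore declined to 67 pairs at 5 libraries and were higher again at 6. Of the 192 values of pairs discordant in 4 libraries that came from their other libraries, 106 lay between 10 and 20 points and 84 within 10 points of 0.

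The recurrence was also read in a library that took no part in choosing the pairs. When pairs were chosen by 4 of the other 5 libraries, 250 to 262 pairs resulted. Of these, 81.7%, 86.9% and 87.6% had at least 20 points of the same sign in the left-out library when it was hemicastrated replicate 1, 2 or 3. The values were 81.7%, 78.7% and 82.9% when it was sham replicate 1, 2 or 3. Over all pairs, a library had 20 points or more of either sign in 0.415% to 0.746%. The sign held in 94.3% to 98.8% of the chosen pairs.

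In most discordant pairs the higher strand was nearly fully methylated and the lower strand was partly methylated. The mean level over libraries had a median of 91.0% on the higher strand and 47.8% on the lower strand. The higher strand was at or above 80% in 225 pairs (70.1%). The lower strand lay between 30% and 70% in 216 pairs (67.3%), between 5% and 30% in 62 and at or above 70% in 22. It lay under 5% in only 21 pairs, and in 7 of these the higher strand was above 80%, so that near-complete asymmetry was rare among them. The mean level of both strands together lay between 20% and 80% in 86.6% of discordant pairs, against 6.97% of all pairs. Within that range the share of discordant pairs was 0.898% of pairs at 20% to 40%, 2.53% at 40% to 60% and 2.74% at 60% to 80%. Only 1 of 119259 pairs under 5% and none of 19306 pairs from 95% upward were discordant, where a difference of 20 points in the levels leaves little or no room. The rule thus also acts on the mean level, and pairs at 20% to 80% that were not discordant serve below as the closer comparison.

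**Figure D1:**
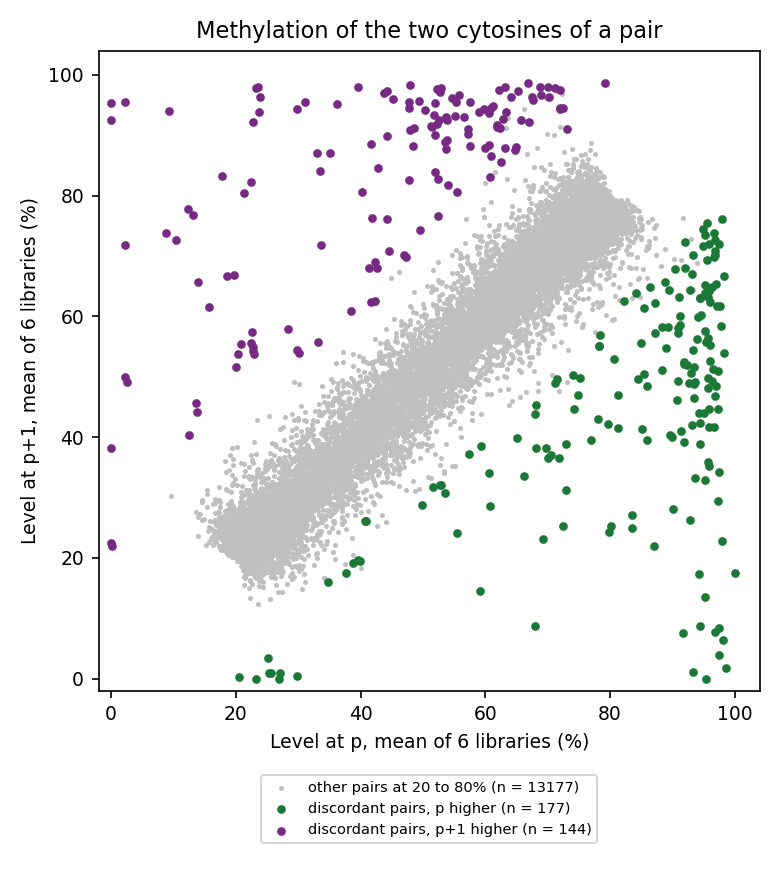
Mean methylation level at p (x axis, %) and at p+1 (y axis, %) over the 6 libraries, 1 point a pair; discordant pairs are coloured by the higher strand (177 with p, 144 with p+1) and grey points are the 13177 other pairs at 20% to 80%. Discordant points gather along the top and right edges, where the higher strand has a median of 91.0%.

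The number of discordant pairs past 20 points in a library overlapped between the groups, with 273, 288 and 290 in hemicastrated libraries, against 273, 266 and 277 in sham libraries. Their median difference, higher minus lower strand, was 35.0, 37.3 and 34.3 points in hemicastrated libraries and 38.4, 38.4 and 38.4 points in sham libraries. The hemicastrated medians lay below the sham medians in all 3 libraries, which has no test because these differences chose the pairs. The median level of the lower strand was 44.9%, 45.1% and 45.6% in hemicastrated libraries and 44.6%, 46.7% and 44.4% in sham libraries, and the groups overlapped. The median level of the higher strand was 88.0%, 91.3% and 90% in hemicastrated libraries and 90.2%, 92.6% and 91.2% in sham libraries, which also overlapped.

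**Figure D2:**
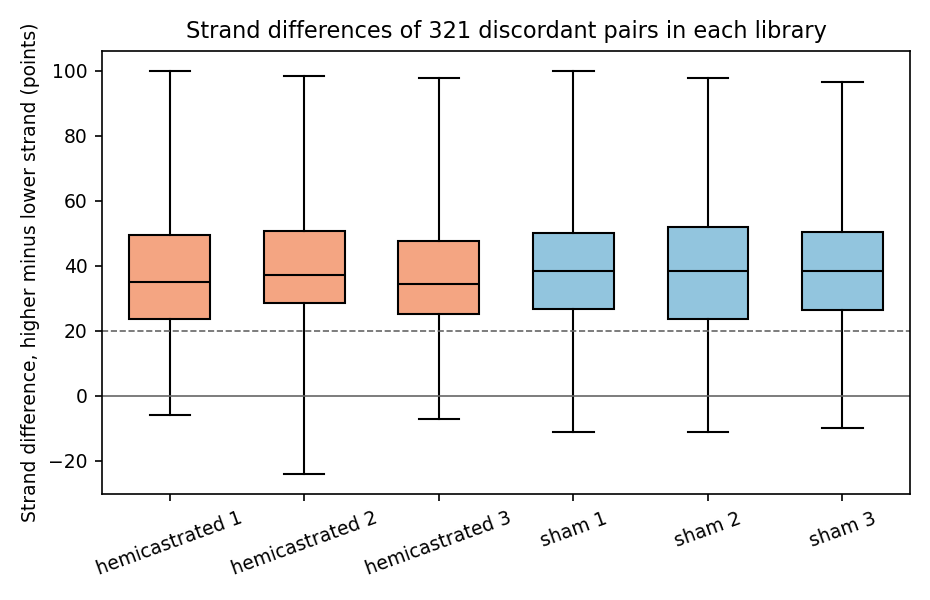
Strand difference of the 321 discordant pairs, higher minus lower strand in points (y axis), in each of the 3 hemicastrated and 3 sham libraries (x axis); boxes span the quartiles around the median, whiskers reach the lowest and highest pair and the dashed line marks 20 points. The medians lie at 34.3 to 37.3 points in hemicastrated libraries and at 38.4 points in the sham libraries.

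Among pairs with at least 50 reads on each strand in every library, the 3 of each sign with the largest median differences were examined. In 4 of these 6 the strand difference was 78.7 to 94.2 points in size in every mouse, while in the pairs in Agap3 and Rn18s-rs5 it varied between mice. On chromosome 14, a pair at position 120649571, 11353 bp from the RIKEN cDNA gene 4930424E08Rik, had 97.2%, 97.4% and 95.9% at p in hemicastrated mice, against 96.1%, 100% and 98.6% in sham mice. At p+1 the same pair had 8.32%, 7.20% and 8.23% in hemicastrated mice, against 10.7%, 7.53% and 8.35% in sham mice. The strand difference averaged 88.9 ± 1.29 points in hemicastrated mice and 89.4 ± 3.61 points in sham mice (SD, n = 3 each). Another pair only 3 bp away was not discordant, with a mean level of 74.7%.

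The predicted gene Gm26973 on chromosome 12 held a couple of such pairs, 103 bp apart and with opposite signs. At 56584445 the level at p was 13.2%, 8.60% and 5.48% in hemicastrated mice, against 8.57%, 6.80% and 12.9% in sham mice. The level at p+1 there was 91.9%, 94.0% and 94.0% in hemicastrated mice, against 93.6%, 96.5% and 94.4% in sham mice. At 56584548 it was p that was methylated, at 97.8%, 96.8% and 96.0% in hemicastrated mice and 96.2%, 97.0% and 97.1% in sham mice. There p+1 had 7.62%, 6.64% and 7.23% in hemicastrated mice and 7.28%, 9.69% and 7.87% in sham mice. On each strand the methylated cytosine of 1 pair thus lay near the unmethylated cytosine of the other, and no mouse departed from this. Read numbers were unequal between the strands, with 69 to 106 reads at each p and 915 to 1127 reads at each p+1.

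In Enpp6 on chromosome 8, which encodes a choline-specific phosphodiesterase, p of the pair at 46962370 had no methylated read in any library. The 774 reads summed over the 6 libraries allow a level of up to 0.388% there, by a floor of 3 counts. At p+1 the level was 90.03%, 92.8% and 92.7% in hemicastrated mice, against 92.6%, 94.2% and 93.2% in sham mice, from 1655 to 1887 reads a library. A pair 59 bp away in the same gene was also discordant, with a median difference of 37.1 points, higher minus lower strand. In Agap3 on chromosome 5, which encodes a GTPase-activating protein for Arf proteins, the higher strand of the pair at 24480139 was even between mice and the lower was not. The level at p was 99.0%, 97.5% and 98.8% in hemicastrated mice, against 97.3%, 97.7% and 93.6% in sham mice. The level at p+1 was 14.6%, 23.6% and 51.1% in hemicastrated mice, against 18.99%, 34.7% and 33.7% in sham mice. The pair with the largest median difference of all, 97.4 points at 91765321 of chromosome 6 in Grip2, which encodes a scaffold protein of glutamate receptors, had as few as 28 reads on a strand and was chosen after its values were seen.

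**Figure D3:**
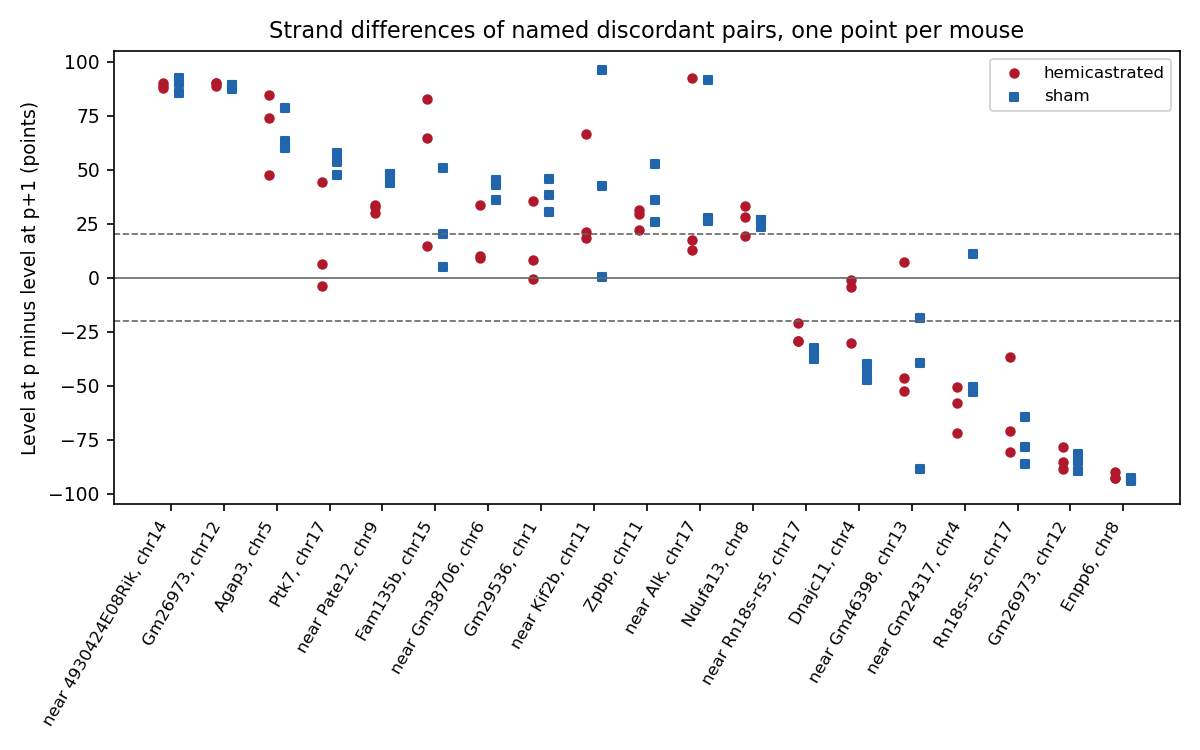
Strand difference, level at p minus level at p+1 in points (y axis), of named discordant pairs (x axis, by gene inside or near), 1 point a mouse, with hemicastrated mice left of sham mice; dashed lines mark 20 points in either direction. The Enpp6 pair lies between -90.03 and -94.2 points in all 6 mice, and the pair near Alk between 12.7 and 92.5 points.

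At the threshold itself, discordant pairs and the pairs just below it had nearly the same values. Just inside, the fourth largest difference of 1 sign was 20 points, rounded to whole points, both in a pair in Nt5dc3 (position 86803030 of chromosome 10) and in a pair in Gm39737 (position 190392049 of chromosome 1). Just outside, it was 19.9 points both in a pair in Gm29536 (position 78800741 of chromosome 1) and in a pair in the immunoglobulin kappa locus Igk (position 67583598 of chromosome 6). Their other values were unlike. The Igk pair had -6.31, 43.4 and -2.99 points in hemicastrated mice, against 35.4, 20.6 and 19.9 points in sham mice. The Gm39737 pair had 12.9 to 23.7 points over the 6 libraries.

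The nearest measured pair that was not itself discordant had a level like that of the higher strand more often than that of the lower strand. Such a pair lay within 200 bp of 266 discordant pairs, at a median distance of 15 bp. Its level had a median of 89.8%, against medians of 91.9% on the higher strand and 49.1% on the lower strand of these 266. It was nearer to the higher strand in 219 cases (82.3%). It lay within 10 points of the higher strand in 164 cases (61.7%) and within 10 points of the lower strand in 37 (13.9%). In 65 cases (24.4%) it had a strand difference of at least 5 points of the same sign as the discordant pair, and in 24 (9.02%) of the other sign. Over all pairs, 4.25% had a mean strand difference of that size in either direction. That is not a comparison at like levels, since 61.8% of all pairs had a mean level under 5%, which leaves little room for 5 points. The share among pairs at the levels of these neighbours was not computed.

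The less methylated strand had more reads than the more methylated strand in 227 discordant pairs (70.7%). The median ratio of reads, lower over higher strand, was 1.53, or 0.61 on the log2 scale. Among the other pairs at 20% to 80% the less methylated strand had more reads in 54.0%, with a median log2 ratio of 0.08. Reads were at least 2-fold more numerous on the lower strand in 111 discordant pairs (34.6%) and on the higher strand in 35 (10.9%). The same values among the other pairs at 20% to 80% were 12.6% and 8.40%. In single libraries, 67.9% to 70.7% of discordant pairs had more reads on the lower strand in hemicastrated mice and 65.4% to 69.5% in sham mice. Among pairs at 20% to 80% the share moved with the median difference, signed toward the strand with the higher mean. It was 51.7% at 0 to 2 points, 52.9% at 2 to 5, 57.8% at 5 to 10 and 61.9% at 10 to 20. At 20 to 40 points it was 73.3%, and 76.4% from 40 points upward. Pairs whose median difference was negative are in no class. The level that sets the range of 20% to 80% pools the reads of both strands. Unequal reads therefore also move a pair into or out of that range, and the shares by class carry this selection. Inside the range the lower strand had more reads in 75.9% of 278 discordant pairs, against 70.7% of all 321. The part of unequal reads in the strand differences was not tested.

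Very deep pairs and very unequal read numbers were also more frequent among the discordant pairs. A mean of over 1000 reads on both strands together was found in 14 of them (4.36%), against 1.27% of the other pairs at 20% to 80%. Reads differed at least 8-fold between the strands in 15 (4.67%), against 0.296%. Both the 14 and the 15 include all 8 pairs of 1 place near Rn18s-rs5, described below, with log2 read ratios of 4.13 to 4.27. These 8 are not independent, so both shares rest in large part on that place. The lowest read number on any strand and library was 20 to 29 in 101 discordant pairs and 100 or more in 22. The share that was discordant was 0.2001% of pairs at 20 to 29 reads and 0.189% at 100 or more, with 0.198% and 0.108% in the classes between.

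**Figure D4:**
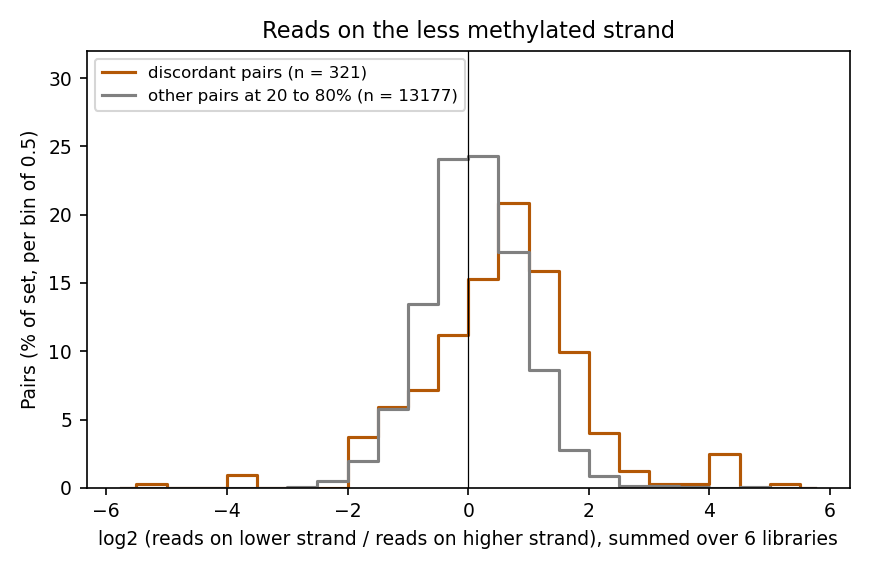
Log2 ratio of reads on the less methylated to reads on the more methylated strand, summed over the 6 libraries (x axis), as a share of pairs in each bin (y axis, %), for the 321 discordant pairs and the 13177 other pairs at 20% to 80%. The medians are 0.61 for the discordant and 0.08 for the other pairs.

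Discordant pairs stood close together. The nearest measured pair was at a median distance of 13 bp from a discordant pair, against 9 bp for all pairs and 16 bp for the other pairs at 20% to 80%. Another discordant pair lay within 100 bp of 143 of them (44.5%). For each discordant pair, all pairs at a given distance on either side were counted. A pair near several discordant pairs was thus counted once for each, so places with many of them weigh more. Counted so, 28.0% of the pairs over 0 to 20 bp away were discordant. The share was 0.166% of all pairs and 2.07% of pairs at 20% to 80%. In the same count it was 23.2% over 20 to 60 bp, 24.1% over 60 to 120 bp, 4.98% over 120 to 300 bp and 0.528% over 300 to 1000 bp. Distances up to 220 bp lie within the selected fragment length, so that neighbours of this kind can share reads and are not independent.

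Neighbouring discordant pairs mostly had the same strand higher. Of 44 neighbouring couples up to 20 bp apart, 42 had the same sign. Of 32 couples over 20 to 60 bp apart, 26 did, and of 16 couples over 60 to 120 bp apart, 12 did. No couple was 120 to 300 bp apart. Joined at up to 300 bp, the 321 pairs formed 229 places, of which 172 held a lone pair and 57 held several, with 149 pairs in all. In 46 of the 57 all signs were the same. The less methylated strand had more reads in 73.8% of lone pairs and in 67.1% of the others.

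**Figure D5:**
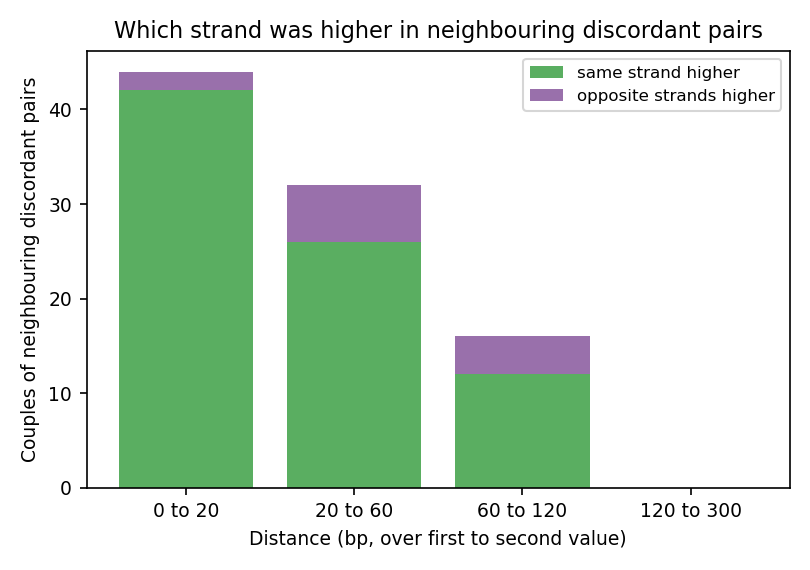
Number of couples of neighbouring discordant pairs (y axis) by the distance between them in bp (x axis), divided into couples with the same strand higher and couples with opposite strands higher. The same strand was higher in 42 of 44 couples up to 20 bp apart and in 12 of 16 over 60 to 120 bp apart.

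The place with the most discordant pairs lay on chromosome 17 from 39845090 to 39845233, 1264 bp from Rn18s-rs5, a sequence related to the gene of 18S ribosomal RNA. All 8 pairs measured in these 142 bp were discordant, and p+1 was higher in each. The mean level of the 8 pairs on the higher strand was 49.7%, 57.8% and 30.7% in hemicastrated mice, against 76.0%, 42.1% and 71.4% in sham mice. On the lower strand it was 17.1%, 24.5% and 8.13% in hemicastrated mice, against 40.0%, 9.76% and 31.5% in sham mice. Both strands moved together from mouse to mouse, and the groups overlapped. The mean difference was 32.5, 33.3 and 22.5 points in hemicastrated mice and 36.0, 32.3 and 39.9 points in sham mice. Ribosomal DNA is present in many copies, so reads from different copies cannot be told apart here. Inside Rn18s-rs5 itself, the pair at 39847627 had 2.56%, 2.10% and 1.54% at p in hemicastrated mice, against 2.06%, 2.23% and 2.69% in sham mice. At p+1 it had 73.6%, 82.996% and 38.2% in hemicastrated mice, against 88.2%, 66.8% and 81.1% in sham mice.

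In Nlrp9b on chromosome 7, a member of the NLRP receptor family, 6 of 7 measured pairs between 20038396 and 20038707 were discordant. The signs changed along the 310 bp: p was higher in the first 2 pairs and p+1 in the next 4. The mean of the 6 on the higher strand was 87.6%, 92.9% and 90.6% in hemicastrated mice, against 92.8%, 94.6% and 93.0% in sham mice. On the lower strand it was 43.4%, 23.9% and 42.9% in hemicastrated mice, against 30.5%, 43.1% and 27.0% in sham mice. The lower strand thus differed more between mice of a group than the higher strand did.

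That was common among discordant pairs. The lower strand ranged more widely over the 6 libraries than the higher strand in 238 of them (74.1%), with median ranges of 21.6 and 10.9 points. Among the other pairs at 20% to 80% the lower strand ranged more widely in 48.6%. Levels near 100% leave less room to range, and in those other pairs both strands lay at middle levels, with medians of 55.7% and 51.9%, so the share of 48.6% takes no account of that limit. The pairs with the widest gap between libraries showed this most plainly. On chromosome 17, at 72635229 and 30527 bp from Alk, which encodes a receptor tyrosine kinase, p had 92.5% to 93.5% in hemicastrated mice and 91.7% to 95.9% in sham mice. At p+1 the level was 76.3%, 80% and 0% in hemicastrated mice, against 0%, 69.7% and 67.3% in sham mice. A mouse of each group thus had no methylated read on the lower strand. On chromosome 11, at 91643125 and 65570 bp from Kif2b, which encodes a kinesin of the mitotic spindle, p had 95.8% to 97.5% in hemicastrated mice and 92.3% to 98.0% in sham mice. There p+1 had 76.2%, 30.2% and 77.4% in hemicastrated mice, against 92%, 1.72% and 53.7% in sham mice. Of the pairs with p+1 higher, that at 103556833 of chromosome 13, 5758 bp from Gm46398, had strand differences of -46.4, -52.5 and 7.07 points in hemicastrated mice, against -39.5, -88.7 and -18.6 points in sham mice. The pair at 15496487 of chromosome 4, 113233 bp from Gm24317, had -57.9, -50.8 and -71.9 points in hemicastrated mice, against -50.8, 10.96 and -52.9 points in sham mice.

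Discordant pairs lay mostly away from genes. By the RefSeq gene table, 133 (41.4%) were inside a gene, against 56.2% of the other pairs at 20% to 80% and 79.0% of all pairs. Within 1000 bp of a gene boundary there were 23 (7.17%), against 16.1% of the other pairs at 20% to 80% and 52.6% of all pairs. Neither held for 183 (57.0%), against 40.9% and 13.3%. The share of pairs that were discordant lay between 0.0526% on chromosome 11 and 0.408% on chromosome 3.

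The gene lists held few measured pairs, so that at the share over all pairs of 0.166% hardly any discordant pair would be found in them, and the counts are given as a description. Of 28 listed imprinted genes, which carry methylation on 1 parental copy, 19 had measured pairs in or within 1000 bp of them, 238 in all. None was discordant, and the largest median difference toward the higher strand was 10.5 points, beside Cdkn1c, an inhibitor of the cell cycle. None was found among 239 pairs of 11 genes of the methylation machinery, which include Dnmt1 and Uhrf1, and the largest difference there was 13.0 points, beside Tet2, an enzyme that oxidises methylcytosine. Of 205 pairs of 14 sperm formation genes, at any level, 2 (0.976%) were discordant, against 0.166% of all pairs. Among all pairs at 20% to 80% the share was 2.07%, but the pair in Tssk6, at a mean level of 17.9%, lies outside that range. The 2 were the pair in Tssk6 shown above and a pair in Zpbp, which encodes a zona pellucida binding protein of the acrosome. The Zpbp pair, at 11399874 of chromosome 11, had 85.9%, 93.2% and 85.2% at p in hemicastrated mice, against 100%, 93.0% and 88.5% in sham mice. At p+1 it had 54.5%, 63.9% and 63.1% in hemicastrated mice, against 47.3%, 56.9% and 62.9% in sham mice. Its strand difference averaged 27.6 ± 4.91 points in hemicastrated mice and 38.1 ± 13.7 points in sham mice (SD, n = 3 each), and the groups overlapped.

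Whether the strand difference of a pair differed between hemicastrated and sham mice was tested on methylated and unmethylated counts over all pairs. No pair was called by edgeR's quasi-likelihood test at a Benjamini-Hochberg adjusted p of 0.05 (0% of 189209 tested), and limma called 0 as well. At an unadjusted p under 0.05 the test gave 1317 pairs (0.696%), among them 20 of the 321 discordant pairs (6.23%). Among the pairs at 20% to 80% alone, a comparison added after the data were seen, the share with an unadjusted p under 0.05 was 4.91% of all and 16.5% of the discordant ones, and 1 pair, not a discordant one, was called. For the next counts the strand difference was taken as higher minus lower strand, so that lower means a smaller gap. Outside the discordant pairs, the higher strand was the one with the higher mean in these same libraries. This difference was lower in every hemicastrated library than in every sham library in 25 discordant pairs (7.79%), against 3.12% of all pairs. It was higher in every hemicastrated library in 7 (2.18%), against 3.32% of all pairs. Among the other pairs at 20% to 80% the shares were 5.03% lower and 5.13% higher. Because strand differences chose the discordant pairs, their shares in this paragraph are a description and not a test of an excess.

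No discordant pair was called for a strand difference between groups, and the 2 with the smallest p in each direction of that difference are given here. In Dnajc11 on chromosome 4, which encodes a mitochondrial protein of the DnaJ family, the pair at 151977648 had strand differences of -4.41, -0.944 and -30.1 points in hemicastrated mice, against -40.1, -47.4 and -44.3 points in sham mice. The groups did not overlap there, and the adjusted p of edgeR's quasi-likelihood test was 1. On chromosome 9, at 36382382 and 49447 bp from Pate12, the differences were 32.7, 33.6 and 29.8 points in hemicastrated mice, against 43.8, 48.1 and 47.9 points in sham mice. These did not overlap either, with a mean of 32.04 ± 1.996 points in hemicastrated mice and 46.6 ± 2.41 points in sham mice (SD, n = 3 each), and the adjusted p of edgeR's quasi-likelihood test was 1. The other 2 were the pair at 39845095 near Rn18s-rs5 and the pair at 46591657 of chromosome 17 in Ptk7, both at an edgeR adjusted p of 1. Near Rn18s-rs5 the strand differences were -29.4, -29.3 and -21.2 points in hemicastrated mice, against -35.6, -32.6 and -37.6 points in sham mice. In Ptk7 they were -3.77, 44.3 and 6.09 points in hemicastrated mice, against 47.5, 57.8 and 53.6 points in sham mice, and neither pair had overlapping groups.

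The share of all pairs with a strand difference of at least 20 points was 0.685%, 0.746% and 0.501% in hemicastrated libraries, against 0.653%, 0.415% and 0.659% in sham libraries. It averaged 0.644% ± 0.127 in hemicastrated mice and 0.576% ± 0.139 in sham mice (SD, n = 3 each), and the groups overlapped. The difference of 0.0680 points was smaller than either SD, and the exact two-sided permutation test gave p = 0.5, where 0.1 is the smallest p that 3 against 3 allows. Without sham replicate 2 the difference was -0.0123 points, so its sign rests on that library.

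Whether the level of the pair, over both strands together, differed between the groups was tested in the same way. Over all pairs 291 of 189209 were called (0.154%), 151 higher and 140 lower in hemicastrated mice, by edgeR's quasi-likelihood test. Of the 321 discordant pairs 2 (0.623%) were called, and both were higher in hemicastrated mice. Discordant pairs with an unadjusted p under 0.05 numbered 29 (9.03%), against 4.31% of all pairs. When only the pairs at 20% to 80% were fitted, a comparison added after the data were seen, these were 13 of 278 discordant pairs (4.68%) and 4.36% of all pairs fitted, and no discordant pair was called. The pair level was higher in every hemicastrated than in every sham library in 14 discordant pairs (4.36%), against 3.83% of all pairs, and lower in 20 (6.23%), against 3.72%. Among the other pairs at 20% to 80% these shares were 2.30% and 7.44%, so that the share of lower pairs was above that of all pairs and below that of pairs at like levels.

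A called pair lay in Ptk7, which encodes a receptor-like pseudokinase of Wnt signalling, at 46591657 of chromosome 17. Its level was 89.8%, 50% and 90.2% in hemicastrated mice, against 47.7%, 45.9% and 55.1% in sham mice. Hemicastrated replicates 1 and 3 were high, and replicate 2 lay inside the range of the sham mice, so the groups overlapped. The mean was 76.7% ± 23.1 in hemicastrated mice and 49.6% ± 4.87 in sham mice (SD, n = 3 each), with edgeR's Benjamini-Hochberg adjusted p = 0.0118. The gap was on the lower strand. At p+1 the level was 91.4%, 40.1% and 87.9% in hemicastrated mice, against 35.8%, 33.8% and 39.4% in sham mice, while p had 84.4% to 93.9% in hemicastrated mice and 83.3% to 93.0% in sham mice. The call was lost when any library but hemicastrated replicate 2 was left out. The edgeR adjusted p was then 0.985 without hemicastrated replicate 1, 0.985 without hemicastrated replicate 3, and 0.106, 0.127 and 0.497 without sham replicate 1, 2 and 3. It was also lost with limma (adjusted p = 0.995) and when only the pairs at 20% to 80% were fitted with edgeR (adjusted p = 0.955).

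The other called pair lay in the predicted gene Gm29536 at 78830306 of chromosome 1. Its level was 70.3%, 97.2% and 88.8% in hemicastrated mice, against 71.6%, 53.8% and 63.6% in sham mice. Again the groups overlapped, and the mean was 85.5% ± 13.8 in hemicastrated mice and 63.0% ± 8.90 in sham mice (SD, n = 3 each), with an edgeR adjusted p of 0.0231. The difference again lay on the lower strand, where p+1 had 62.4%, 97.4% and 86.8% in hemicastrated mice and 65.4%, 47.0% and 57.0% in sham mice. The call was lost without hemicastrated replicate 2 (edgeR adjusted p = 0.967) or 3 (0.767) and without sham replicate 2 (0.790) or 3 (0.904). It was also lost with a robust prior (0.0855), with the replicate block (0.0772), among the pairs at 20% to 80% alone (0.955) and with limma (0.995).

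On the lower side no discordant pair was called. The smallest p belonged to the pair at 130602705 of chromosome 6, 22672 bp from Gm38706, with a level at p of 8.86%, 11.3% and 33.7% in hemicastrated mice, against 35.8%, 46.5% and 43.1% in sham mice. At p+1 that pair had 0%, 1.10% and 0% in hemicastrated mice, against 0%, 1.37% and 0% in sham mice. Its pair level was lower by 14.2 points in hemicastrated mice with an edgeR adjusted p of 0.281, and the adjusted p was 0.0211 without hemicastrated replicate 3. The next was the pair at 71585230 of chromosome 15 in Fam135b, with pair levels of 50%, 43.1% and 66.2% in hemicastrated mice, against 85.7%, 73.4% and 80.2% in sham mice (edgeR adjusted p = 0.311). In both of these pairs every hemicastrated mouse lay below every sham mouse.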

How the data were processed

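Right testis DNA of 3 hemicastrated and 3 sham mice was analysed. The authors deposited, for each library and cytosine position, methylated and unmethylated read counts without normalization and a level in percent, per the file headers. The submitters' processing notes name Bismark, TopHat2 2.0.11 and GRCm38, and do not say which step each did. How reads were trimmed, how duplicates were handled and how read ends filled in at MspI sites were treated is not stated in these sources. Each of these can shift the level of 1 strand.

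Levels were recomputed from the counts. A position counted as listed when any of the 6 files listed it, and 55.4% of 12616229 positions touched another. Calls numbered 64504011 to 78630942 a library. Counts of pairs were fitted with edgeR 4.0.16 in R 4.3.3, using its quasi-likelihood test and adjusting p-values after Benjamini-Hochberg over 189209 pairs (pairs with only methylated or only unmethylated reads were dropped). The strand test had a methylation term for each library, a strand term and the tested strand by group term, and the level test a methylation by group term. In the 2 main fits each pair took its spread from a trend over read number fitted to all pairs. This was because the estimated prior degrees of freedom were infinite. A pair's own spread between mice did not enter its main test. Some alternative fits had finite prior degrees of freedom, so a pair's own spread did enter there. For the pair level they were 3.50 among pairs at 20% to 80% and 52.3 without sham replicate 3. Both tests were tested on simulated data. limma 3.58.1 on log2 ratios with 1 added to each count, a robust prior, other read minimums (10 and 50), a replicate block and leaving out each library were the alternatives.

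Gene places came from RefSeq tables of GRCm38.p6. The discordant pairs and the gene lists were chosen with earlier results of these data known. Named pairs were the 3 of each sign with the largest differences and at least 50 reads, the 2 just inside and outside the threshold, the smallest p of each test by direction, the 2 largest groups, those in promoter windows and gene lists, and the widest between libraries. Wilson intervals used 95%.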

Additional observations from a re-analysis of the deposited data

How the results depend on the processing

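The number of discordant pairs was 321, and 510 with a read minimum of 10, 95 with 50, 198 at 30 points, 1039 at 10 points, 158 where all 6 libraries were needed and 225 where 5 were. Left-out libraries gave 250 to 262, and 307 remained without pairs of over 1000 reads, a comparison added after the data were seen. The difference in the share of pairs past 20 points lay between -0.0123 and 0.139 over left-out libraries, and between 0.0109 and 0.161 under the other settings. Calls on the strand difference numbered 0 to 1 over left-out libraries and 1 among pairs at 20% to 80%. Calls on the pair level numbered 45 with a minimum of 50 reads, 70 with a robust prior, 12 with limma and 9 among pairs at 20% to 80%, against 291, and 91 to 306 over left-out libraries. Among the values of named pairs, 243 were rated unchanged, 15 lost the call and 1 gained it, and the cause was not tested. Many of the 243 are median strand differences with a library left out, which carry no call. Those were rated unchanged when they moved by less than the SD over the 6 libraries. The pair in Ptk7 lost its call in 7 settings and kept it in 4. The pair in Gm29536 lost its call in 8 settings and kept it in 3. Replicates with the same number did not deviate together in pair level (r = 0.0418, 0.0398 and -0.0235), so the numbers give no pairing. With the replicate block, 0 pairs were called on the strand difference and 251 on the pair level, and the pair of Gm29536 had an edgeR adjusted p of 0.0772. Depth limits pairs near 20 reads, where a single library's level has a wide interval. The pairing of positions as CpG rests on promoter letters. The mapping of repeats and sequence variants of the KM mice at the pairs were not tested.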
